A study of Homo sapiens with 24 samples.

Results

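Knockdown of KAT2A was compared directly with knockdown of KAT2B in human keratinocytes that had not yet been differentiated. The comparison took the 4 libraries labelled KAT2A_KD and the 4 labelled KAT2B_KD at the Subconfluent and Confluent stages, 8 of the 24 libraries of the study, with the stage as a covariate and with no library of the NT genotype. A positive log2 difference means a higher level in KAT2A_KD, and without NT libraries it cannot be told apart whether one knockdown raised a gene or the other lowered it.

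All libraries came from nTERT-1 cells (N/TERT-1), an immortalised human keratinocyte line, and were made from polyadenylated RNA with a directional kit. The study has 4 genotypes (NT, KAT2A_KD, KAT2B_KD and KAT2AB_KD) at 3 stages, Subconfluent, Confluent and Differentiated. Each of its 12 groups has 2 libraries. The labels give all groups the treatment keratinocyte differentiation, and they state neither how the knockdowns were made, nor whether they come from 1 clone, nor whether the libraries of a group are separate cultures. The p-values therefore measure only the spread between these libraries, which may be technical.

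KAT2A and KAT2B are closely related lysine acetyltransferases, and either one can serve as the catalytic subunit of the coactivator complexes SAGA and ATAC. Keratinocytes leave the basal layer and switch on genes for the spinous layer, then for the granular layer and the cornified envelope, a crosslinked protein shell built in part from the small proline-rich (SPRR) and late cornified envelope (LCE) proteins. Keratinocytes also make antimicrobial and alarm proteins, such as the S100 calgranulins and the protease inhibitors SLPI and elafin (PI3), which rise in stressed or inflamed epidermis.

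The 8 libraries held 8010178 to 14399033 counts, and the log CPM values of the libraries of a group correlated across genes with r of 0.968 to 0.979 (genes are not independent replicates). Levels are given in CPM, a gene's count scaled to the library's total with TMM factors, and library 1 is named before library 2. The summed CPM of 8 keratinocyte markers, led by the basal keratin KRT5, was 18860 to 31440 in KAT2A_KD and 18030 to 34310 in KAT2B_KD.

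The target genes followed their labels. KAT2A stood at 3.75 and 4.48 CPM in Subconfluent KAT2A_KD libraries and at 26.7 and 27.7 in Subconfluent KAT2B_KD, and at 4.33 and 5.54 against 40.5 and 41.7 at Confluent. KAT2B stood at 5.29 and 5.67 CPM in Subconfluent KAT2A_KD and at 0.164 and 1.15 in KAT2B_KD, and at 7.44 and 8.61 against 0.728 and 1.37 at Confluent. In every library the targeted paralog was below all libraries of the other genotype. The log2 difference was -2.90 (SE 0.16, adjusted p = 1.83e-07) for KAT2A and 2.97 (SE 0.38, adjusted p = 0.000859) for KAT2B.

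Before differentiation, KAT2A_KD cells had more RNA of several barrier and antimicrobial genes than KAT2B_KD cells, and less of the intermediate filament gene VIM. Of 14451 genes tested, 134 (0.927%) were higher in KAT2A_KD and 47 (0.325%) were lower at an adjusted p under 0.05. These 181 genes are 1.25% of those tested, and all had the same sign in the library 1 data alone and in the library 2 data alone. The 181 were chosen on these same libraries, which makes that agreement likely, so it is no independent check. With an absolute log2 difference of at least 1, 106 genes were higher and 16 lower. With the replicate number as a block, 234 genes were higher (1.62%) and 141 lower (0.976%), and all 181 were among them.

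The total depended on single libraries. It was 74 without KAT2A_KD Subconfluent 1, 87 without KAT2A_KD Subconfluent 2, 96 without KAT2A_KD Confluent 1, 103 without KAT2A_KD Confluent 2 and 103 without KAT2B_KD Confluent 1. Of the 181 genes, 59 passed without each of the 8 libraries in turn, 49 of them higher and 10 lower in KAT2A_KD. Below, a gene called in the stage-adjusted test with no library named beside it is one of these, and for every other called gene the libraries without which it did not pass are given with the adjusted p.

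Several of the genes that were higher in KAT2A_KD lie side by side. Taking the tested genes in RefSeq order and allowing 1 uncalled gene between neighbours, 32 of the 134 stood in 12 groups of neighbouring genes. Of the 47 lower genes, 4 stood in 2 groups. A larger set forms more neighbours by its number alone, and no background share was computed, so these shares are not compared. Some neighbours are near-identical copies whose reads may not be told apart, such as the SPRR2 genes and S100A7 with S100A7A. The longest run was SPRR1A, SPRR3, SPRR1B, SPRR2D, SPRR2A and SPRR2B on chromosome 1, and the next was S100A9, S100A8, S100A7A and S100A7 on the same chromosome. MMP10, MMP1 and MMP3 on chromosome 11, SERPINB13, SERPINB4 and SERPINB3 on chromosome 18, and PI3 and SLPI on chromosome 20 formed others. SERPINB13 did not pass without KAT2A_KD Subconfluent 1 (adjusted p = 0.092) or KAT2A_KD Subconfluent 2 (0.062).

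The promoter sequences of 5 genes from these results are shown because all 5 genes were called higher in KAT2A_KD and all hold matches to the AP-1 motif, the binding motif of the JUN and FOS factors. Each is the 250 bases before the RefSeq start site of the gene in the build GRCh38.p14, 5′ to 3′ on the gene's strand. The capitals mark matches to TGANTCA on either strand. The windows are chr1:153030953-153031202 (plus strand) for SPRR1B, chr1:152983831-152984080 (plus strand) for SPRR1A, chr1:153001499-153001748 (plus strand) for SPRR3, chr19:35490465-35490714 (minus strand) for KRTDAP and chr11:102780629-102780878 (minus strand) for MMP10.
SPRR1B: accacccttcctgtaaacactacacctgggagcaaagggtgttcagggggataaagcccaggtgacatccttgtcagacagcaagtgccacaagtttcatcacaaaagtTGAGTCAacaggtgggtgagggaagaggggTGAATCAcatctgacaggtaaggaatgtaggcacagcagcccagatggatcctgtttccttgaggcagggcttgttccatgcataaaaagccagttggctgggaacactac
SPRR1A: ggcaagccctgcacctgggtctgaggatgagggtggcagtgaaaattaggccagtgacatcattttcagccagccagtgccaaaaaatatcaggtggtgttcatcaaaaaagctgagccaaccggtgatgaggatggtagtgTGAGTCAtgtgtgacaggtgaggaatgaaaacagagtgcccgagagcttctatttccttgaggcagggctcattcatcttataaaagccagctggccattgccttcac
SPRR3: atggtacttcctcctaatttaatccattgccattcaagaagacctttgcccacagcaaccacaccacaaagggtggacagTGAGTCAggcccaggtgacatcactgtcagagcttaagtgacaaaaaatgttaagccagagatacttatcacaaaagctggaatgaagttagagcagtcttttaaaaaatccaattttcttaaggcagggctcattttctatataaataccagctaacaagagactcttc
KRTDAP: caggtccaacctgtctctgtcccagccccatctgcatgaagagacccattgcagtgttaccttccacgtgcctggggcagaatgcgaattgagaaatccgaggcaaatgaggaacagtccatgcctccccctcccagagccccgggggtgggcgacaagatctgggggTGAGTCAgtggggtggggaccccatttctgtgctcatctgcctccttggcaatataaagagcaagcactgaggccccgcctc
MMP10: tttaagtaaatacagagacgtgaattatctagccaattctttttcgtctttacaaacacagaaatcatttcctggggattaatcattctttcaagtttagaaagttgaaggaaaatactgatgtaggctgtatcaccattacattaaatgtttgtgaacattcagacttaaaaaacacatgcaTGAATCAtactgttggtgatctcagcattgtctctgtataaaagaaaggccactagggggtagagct

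The first base of each match, counted back from the start site, was at -141 and -111 in SPRR1B, -108 in SPRR1A, -170 in SPRR3, -82 in KRTDAP and -67 in MMP10. A promoter was at hand for 139 of the 181 called genes. AP-1 matches were in 18 of 103 promoters of higher genes (17.5%), in 2 of 36 of lower genes (5.56%), in 4.15% of the 10956 promoters of tested genes and in 6.6% of all 27305. Several of the higher genes are neighbouring members of 1 family and are not independent of each other. The grainyhead motif AACCNGTT, searched likewise on both strands, was in 6 of 103 (5.83%) and 0 of 36, against 1.18% of the tested genes, and the interferon-stimulated response element, read here as GAAA, any 2 bases and GAAA, was in 2 of 103 (1.94%) and 0 of 36, against 2.57%. A match describes letters in the window and is not shown to be a bound site. The genes of the AP-1 family themselves had no call, with 0 of 8 tested members passing. With 1.25% of all tested genes called, 0 in a list of this size is near the background. All 8 log2 differences were below 0 and their median was -0.17. Over all genes tested, 7463 of 14451 differences were below 0 and the median was -0.01.

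Genes of secreted protease inhibitors and of S100 alarm proteins were among the higher genes. PI3, which encodes the elastase inhibitor elafin, stood at 32.2 and 45.0 CPM in Subconfluent KAT2A_KD and at 1.07 and 1.504 in KAT2B_KD, and at 113 and 95.3 against 2.35 and 10.3 at Confluent. The lowest KAT2A_KD library was above the highest KAT2B_KD library over both stages. The log2 difference was 4.39 (SE 0.43, adjusted p = 0.00364). The rule that named the highest and lowest genes required no overlap within a stage. For genes named by it, a lack of overlap is therefore no separate evidence. Other genes described below as separated were picked by a low p on these same libraries, which favours separation. The share of all tested genes that separate is not given here, so for them too it is no separate evidence. SLPI, another secreted inhibitor of neutrophil proteases, stood at 5.62 and 8.23 against 0.328 and 0.0716 CPM at Subconfluent and at 16.0 and 13.3 against 2.02 and 2.64 at Confluent, again with no overlap (log2 3.38, SE 0.40, adjusted p = 0.000807).

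S100A8 and S100A9 encode the partners of calprotectin. S100A8 was at 18.3 and 28.5 CPM against 2.46 and 2.29 at Subconfluent, and at 58.5 and 40.9 against 8.17 and 13.5 at Confluent. Every KAT2A_KD library was above every KAT2B_KD library (log2 2.68, SE 0.27, adjusted p = 0.000369). S100A9 was at 101 and 114 CPM against 24.7 and 11.3, and at 208 and 151 against 40.4 and 57.5, with the same separation (log2 2.22, SE 0.26, adjusted p = 0.00329). S100A7, the antimicrobial protein psoriasin, had 187 counts over the 4 KAT2A_KD libraries and 3 over the 4 KAT2B_KD libraries, a ratio of CPM-scaled counts of 65.2 with a 95% counting interval of 22.0 to 318.9. Its neighbour S100A7A had 131 and 3 counts, a ratio of 45.7 (15.3 to 224.2). S100A7 and S100A7A are near-identical, and their reads may not be told apart. The intervals cover counting error only.

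**Figure D1:**
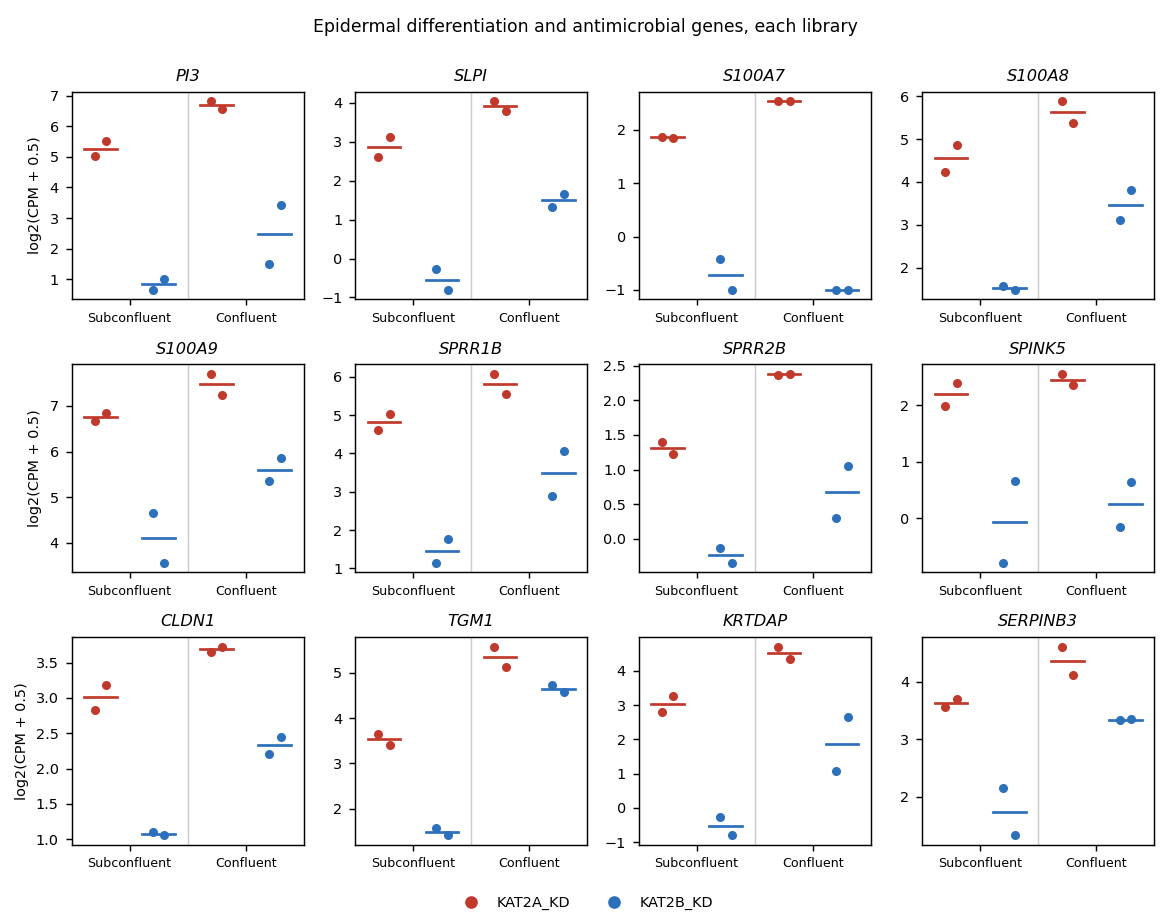
Levels of 12 differentiation and antimicrobial genes in each library, as log2(CPM + 0.5) on separate vertical axes, at Subconfluent (left) and Confluent (right). Points are the 2 libraries of a group and bars are their mean, in red for KAT2A_KD and blue for KAT2B_KD. Within each stage both KAT2A_KD libraries sit above both KAT2B_KD libraries in all 12 panels. The genes shown were picked among called genes with their values known, so this separation is no test. The share of all tested genes that separate in this way is not given here.

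Of the 40 genes listed for barrier stress and inflammation, 23 passed the filter on low counts, 4 of these were higher in KAT2A_KD and 0 lower (5 and 0 with the replicate block), and the median log2 difference was 0.20. The 4 were S100A7, S100A8, S100A9 and IL1RN, the interleukin-1 receptor antagonist, which was at 9.57 and 11.8 CPM against 5.33 and 3.73 and at 31.8 and 25.7 against 15.1 and 12.1 (log2 1.15, SE 0.17, adjusted p = 0.00341). A gene near the filter passes it more easily where 1 genotype expresses it, so the 23 do not stand for the list.

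In the stage-adjusted test 6 SPRR genes, whose products are crosslinked into the cornified envelope, were higher in KAT2A_KD. Within single stages 2 SPRR or LCE genes passed at Subconfluent and 0 at Confluent. SPRR1B stood at 24.03 and 32.2 CPM against 1.72 and 2.94 at Subconfluent and at 66.9 and 46.3 against 6.88 and 16.4 at Confluent. The lowest KAT2A_KD value was above the highest KAT2B_KD value (log2 2.85, SE 0.37, adjusted p = 0.00789), and the call was lost without KAT2B_KD Subconfluent 2 (adjusted p = 0.0861). SPRR2B, at lower levels, stood at 2.14 and 1.83 against 0.41 and 0.287 CPM, then at 4.67 and 4.72 against 0.728 and 1.58 (log2 2.23, SE 0.38, adjusted p = 0.00816).

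SPRR1A had a log2 difference of 2.89 (adjusted p = 0.0150), lost without KAT2A_KD Subconfluent 1 (adjusted p = 0.062), KAT2B_KD Confluent 1 (0.122), KAT2A_KD Confluent 1 (0.0637) or KAT2B_KD Subconfluent 2 (0.119). SPRR3 had 3.55 (adjusted p = 0.0268), lost without KAT2B_KD Subconfluent 1 (0.069), KAT2A_KD Subconfluent 1 (0.0912), KAT2A_KD Confluent 1 (0.0878), KAT2B_KD Subconfluent 2 (0.14) or KAT2A_KD Subconfluent 2 (0.0619). SPRR2D had 2.02 (adjusted p = 0.0104), lost without KAT2A_KD Subconfluent 1 (0.0501) or KAT2A_KD Confluent 1 (0.0521). The SPRR2 genes are near-identical copies of each other, and how reads that match several genes were counted is not given.

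SPRR2A (log2 2.002, adjusted p = 0.0270) was lost without each library but KAT2B_KD Subconfluent 2 and KAT2B_KD Confluent 2 (adjusted p 0.0572 to 0.106). LCE3D, a late cornified envelope gene, had 59 counts over the KAT2A_KD libraries and 2 over the KAT2B_KD libraries, a ratio of 30.8 (8.17 to 260.6), and it did not pass without KAT2A_KD Subconfluent 1 (adjusted p = 0.0603). LCE3E had 39 and 2 counts, a ratio of 20.4 (5.28 to 174.3), with a call lost without each of the 8 libraries (adjusted p 0.0509 to 0.170). LCE3D and LCE3E are close copies of each other.

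Of the 25 SPRR and LCE genes, 13 passed the filter on low counts, 8 were higher in KAT2A_KD and 0 lower (10 and 0 with the replicate block), and the median log2 difference of the 13 was 2.22. A gene near the filter passes it more easily where 1 genotype expresses it, so the 13 do not stand for the family. The count of 8 ranged from 2 to 8 as libraries were left out: it was 2 without KAT2A_KD Subconfluent 1, 3 without KAT2A_KD Confluent 1, 4 without KAT2B_KD Subconfluent 2, and 5 without KAT2B_KD Subconfluent 1, KAT2B_KD Confluent 1 or KAT2A_KD Subconfluent 2.

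Among genes of early (spinous) differentiation, 9 of the 27 tested, out of 29 listed, were higher in KAT2A_KD and 0 lower (11 and 0 with the replicate block), with a median of 0.61. CLDN1, a sealing protein of tight junctions, stood at 6.63 and 8.60 CPM against 1.64 and 1.58 at Subconfluent and at 12.03 and 12.7 against 4.13 and 4.96 at Confluent. All 4 KAT2A_KD libraries were above all 4 KAT2B_KD libraries (log2 1.80, SE 0.23, adjusted p = 0.000807). SERPINB3 (log2 1.51, adjusted p = 0.00542) and SERPINB4 (1.47, 0.00758), serine protease inhibitor family members of squamous epithelium whose reads are hard to separate, and the surface protein gene LYPD3 (0.94, 0.00699) were also higher.

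The transglutaminase TGM1, which crosslinks the envelope, was at 12.1 and 10.2 CPM against 2.46 and 2.15 at Subconfluent and at 47.4 and 34.5 against 26.1 and 23.3 at Confluent. The stage-adjusted difference was 1.36 (SE 0.27, adjusted p = 0.0330), lost without each library but KAT2B_KD Confluent 1 and KAT2A_KD Confluent 2 (adjusted p 0.0528 to 0.0937). KRTDAP, a gene of differentiating keratinocytes, had 3.35 (adjusted p = 0.0276), lost without KAT2B_KD Subconfluent 1 (0.0991), KAT2A_KD Subconfluent 1 (0.098), KAT2B_KD Confluent 1 (0.12) or KAT2A_KD Confluent 1 (0.0793). CLDN4 (log2 1.68, adjusted p = 0.0324) was lost without each of the 8 libraries (0.0533 to 0.149). The keratins of suprabasal cells were not among the calls: KRT1 had a log2 difference of -0.10 (adjusted p = 0.858) and KRT10 0.29 (0.555). The spinous count was 4 to 7 as single libraries were left out. It was 6 without KAT2B_KD Subconfluent 1, KAT2B_KD Confluent 1, KAT2B_KD Subconfluent 2 or KAT2B_KD Confluent 2, 5 without KAT2A_KD Subconfluent 2 and 4 without KAT2A_KD Subconfluent 1 or KAT2A_KD Confluent 1.

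Among the 32 genes of the granular layer and cornified envelope, 19 were tested, 5 were higher in KAT2A_KD and 0 lower (6 and 0 with the replicate block), and the median was 1.57. The median of the 19 was 1.45 at Subconfluent and 0.41 at Confluent. As a gene near the filter passes it more easily where 1 genotype expresses it, the 19 do not stand for the list. SPINK5, an inhibitor of skin kallikreins, stood at 3.48 and 4.76 CPM against 0.082 and 1.07 at Subconfluent and at 5.37 and 4.60 against 0.405 and 1.05 at Confluent, with no overlap (log2 2.78, SE 0.47, adjusted p = 0.00831). KLK6, a kallikrein protease, had 1.91 (adjusted p = 0.00699). ASPRV1, a protease of the granular layer, had 43 counts against 1, a ratio of 45.0 (7.65 to 1816), lost without each library but KAT2A_KD Confluent 2 (adjusted p 0.0502 to 0.119). The epidermal differentiation genes IVL (log2 1.85, adjusted p = 0.202) and FLG (2.28, 0.208) did not pass.

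The epidermal lipid barrier list had 4 higher and 0 lower of 18 tested, out of 26, with a median of 0.22. It had 5 higher with the replicate block and 1 to 4 with 1 library left out. The 18 do not stand for the list, since a gene near the filter passes it more easily where 1 genotype expresses it. ABCA12, the lipid transporter of lamellar granules, stood at 12.1 and 12.8 CPM against 3.77 and 6.38 and at 19.1 and 23.2 against 5.91 and 11.9 (log2 1.27, SE 0.22, adjusted p = 0.0108), lost without KAT2A_KD Confluent 2 (0.0549). The other 3 were NIPAL4 (log2 0.75, adjusted p = 0.0249), SULT2B1, which sulfates cholesterol (2.41, 0.0329), and the phospholipase gene PLA2G4E (3.12, 0.0361). NIPAL4 was lost without KAT2B_KD Subconfluent 1 (0.0631), KAT2A_KD Subconfluent 1 (0.0978), KAT2B_KD Confluent 1 (0.0836), KAT2A_KD Subconfluent 2 (0.101) or KAT2A_KD Confluent 2 (0.0896). SULT2B1 was lost without KAT2B_KD Subconfluent 1 (0.0698), KAT2A_KD Subconfluent 1 (0.0863), KAT2B_KD Confluent 1 (0.118), KAT2A_KD Confluent 1 (0.0941) or KAT2A_KD Subconfluent 2 (0.0829). PLA2G4E was lost without each library but KAT2B_KD Confluent 2 (0.0654 to 0.175).

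Of the epidermal transcription factors, 4 of 28 tested were higher and 0 lower, with a median of -0.03. With the replicate block 5 were higher, and with 1 library left out 0 to 3. They were GRHL1 (log2 1.07, adjusted p = 0.0328) and GRHL3 (1.05, 0.0277), grainyhead factors of the barrier, ZNF750 (1.91, 0.0290), a factor of terminal differentiation, and the homeodomain-only gene HOPX (2.52, 0.0373). None of the 4 passed without each library in turn. GRHL1 was lost without each library but KAT2B_KD Subconfluent 2 (0.0647 to 0.161) and HOPX without each of the 8 (0.0594 to 0.24). GRHL3 was lost without KAT2A_KD Subconfluent 1 (0.105), KAT2B_KD Confluent 1 (0.0831), KAT2A_KD Confluent 1 (0.143), KAT2A_KD Subconfluent 2 (0.085) or KAT2B_KD Confluent 2 (0.0565). ZNF750 was lost without KAT2B_KD Subconfluent 1 (0.0507), KAT2A_KD Subconfluent 1 (0.116), KAT2B_KD Confluent 1 (0.107), KAT2A_KD Confluent 1 (0.121) or KAT2A_KD Confluent 2 (0.091).

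Of 18 tested metalloproteases and TIMPs, 3 neighbouring genes were higher in KAT2A_KD and 0 lower, with a median of 0.11 and 8 of the 18 below 0. With the replicate block 5 were higher and 1 lower. MMP10, a stromelysin, stood at 14.2 and 11.2 CPM against 2.13 and 2.36 at Subconfluent and at 19.9 and 20.0 against 3.97 and 3.80 at Confluent. The libraries of a group lay close together and the genotypes did not overlap (log2 2.42, SE 0.18, adjusted p = 5.48e-06). MMP3, the neighbouring stromelysin gene, was at 4.02 and 2.74 against 0.41 and 0.645 CPM and at 5.02 and 9.43 against 1.21 and 0.844 (log2 2.72, SE 0.35, adjusted p = 0.000859), and MMP1, an interstitial collagenase, had 1.49 (SE 0.23, adjusted p = 0.00484).

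VIM, the intermediate filament gene typical of mesenchymal cells, which cultured keratinocytes also express, was lower in KAT2A_KD. It stood at 38.2 and 48.6 CPM in Subconfluent KAT2A_KD and at 314 and 305 in KAT2B_KD, and at 36.7 and 27.0 against 174 and 175 at Confluent. The KAT2B_KD libraries were all above the KAT2A_KD libraries (log2 -2.65, SE 0.15, adjusted p = 1.83e-07). The antisense gene VIM-AS1 overlaps it, and its counts (log2 -3.26, adjusted p = 0.0420) cannot be separated from those of VIM where strand was not used, which is not given. VIM-AS1 was lost without each library but KAT2B_KD Subconfluent 1 and KAT2A_KD Subconfluent 2 (adjusted p 0.0555 to 0.182).

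DES, the muscle intermediate filament desmin, was at 0.602 and 1.01 CPM against 4.84 and 11.96 at Subconfluent and at 0.693 and 0.825 against 3.88 and 9.07 at Confluent (log2 -3.26, SE 0.40, adjusted p = 0.000807). ANPEP, the surface aminopeptidase CD13, stood at 2.08 and 1.19 CPM against 13.7 and 14.9 and at 0.433 and 0.354 against 8.90 and 6.75 (log2 -3.48, SE 0.29, adjusted p = 1.39e-05). Neither gene overlapped between the genotypes, which the naming rule required within each stage. FAM167A (log2 -2.09, adjusted p = 5.6e-05), the chloride channel gene ANO1 (-1.45, 0.0017), the focal adhesion gene LPXN (-1.28, 0.00121) and the adhesion gene FLRT2 (-1.19, 0.000391) were lower as well.

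LRRC61 (log2 -1.76, adjusted p = 0.0383), SCG5 (-1.34, 0.0298) and MCCD1 (-1.25, 0.0259) complete the 12 lowest genes of the naming rule together with KAT2A itself. The counts of MCCD1 equal those of another gene or share a common divisor across the libraries, so its reads may not be its own. LRRC61 was lost without KAT2A_KD Subconfluent 1 (0.0863), KAT2B_KD Confluent 1 (0.164), KAT2A_KD Confluent 1 (0.117), KAT2B_KD Subconfluent 2 (0.0825) or KAT2A_KD Subconfluent 2 (0.143). SCG5 was lost without KAT2B_KD Subconfluent 1 (0.157), KAT2A_KD Subconfluent 1 (0.17), KAT2B_KD Confluent 1 (0.0677), KAT2A_KD Confluent 1 (0.0633), KAT2A_KD Subconfluent 2 (0.15) or KAT2A_KD Confluent 2 (0.0638). MCCD1 was lost without KAT2A_KD Subconfluent 1 (0.106), KAT2B_KD Confluent 1 (0.0941), KAT2A_KD Confluent 1 (0.0972), KAT2A_KD Subconfluent 2 (0.0584) or KAT2A_KD Confluent 2 (0.0991).

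The TGF-beta and mesenchymal genes did not move 1 way. Of 31 tested, 2 were higher in KAT2A_KD and 3 lower, with a median of -0.12. With the replicate block 5 were higher and 4 lower, and without KAT2B_KD Subconfluent 2 there were 4 higher and 3 lower. TNC, the matrix protein tenascin C, stood at 125 and 157 CPM against 22.5 and 43.3 and at 180 and 195 against 60.7 and 61.2 (log2 1.85, SE 0.19, adjusted p = 0.000194), and TAGLN, an actin-binding protein of contractile cells, had 1.37 (adjusted p = 0.00185). SERPINE2, an extracellular protease inhibitor, was lower with VIM (log2 -0.95, SE 0.12, adjusted p = 0.000807), as was SNAI2, a transcription factor that represses epithelial genes (-0.66, 0.0177). SNAI2 was lost without KAT2A_KD Subconfluent 1 (0.0912), KAT2B_KD Confluent 1 (0.0526), KAT2A_KD Confluent 1 (0.0584) or KAT2A_KD Subconfluent 2 (0.103).

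The summed level of 8 fibroblast markers was 4.48 to 4.76 CPM in KAT2A_KD and 1.58 to 4.01 in KAT2B_KD. DPT was at 0 in all 8 libraries, and COL1A1 was the highest member, with a mean of 3.12 CPM over the 8 libraries. Melanocyte markers summed to 6.06 to 15.4 and 5.66 to 11.1 CPM, with TYR and DCT at 0 in all 8. Immune markers summed to 19.1 to 20.7 and 20.1 to 25.8 CPM, with CD3E, AIF1 and CD207 at 0, and endothelial markers to 0 to 0.354 and 0.162 to 0.527 CPM, with PECAM1, CDH5 and TEK at 0. Among the markers tested only MITF, a regulator of pigment cells, passed (log2 1.37, adjusted p = 0.0152), lost without KAT2A_KD Subconfluent 1 (0.092) or KAT2A_KD Confluent 2 (0.0749). The part of these cells in the results was not tested.

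**Figure D2:**
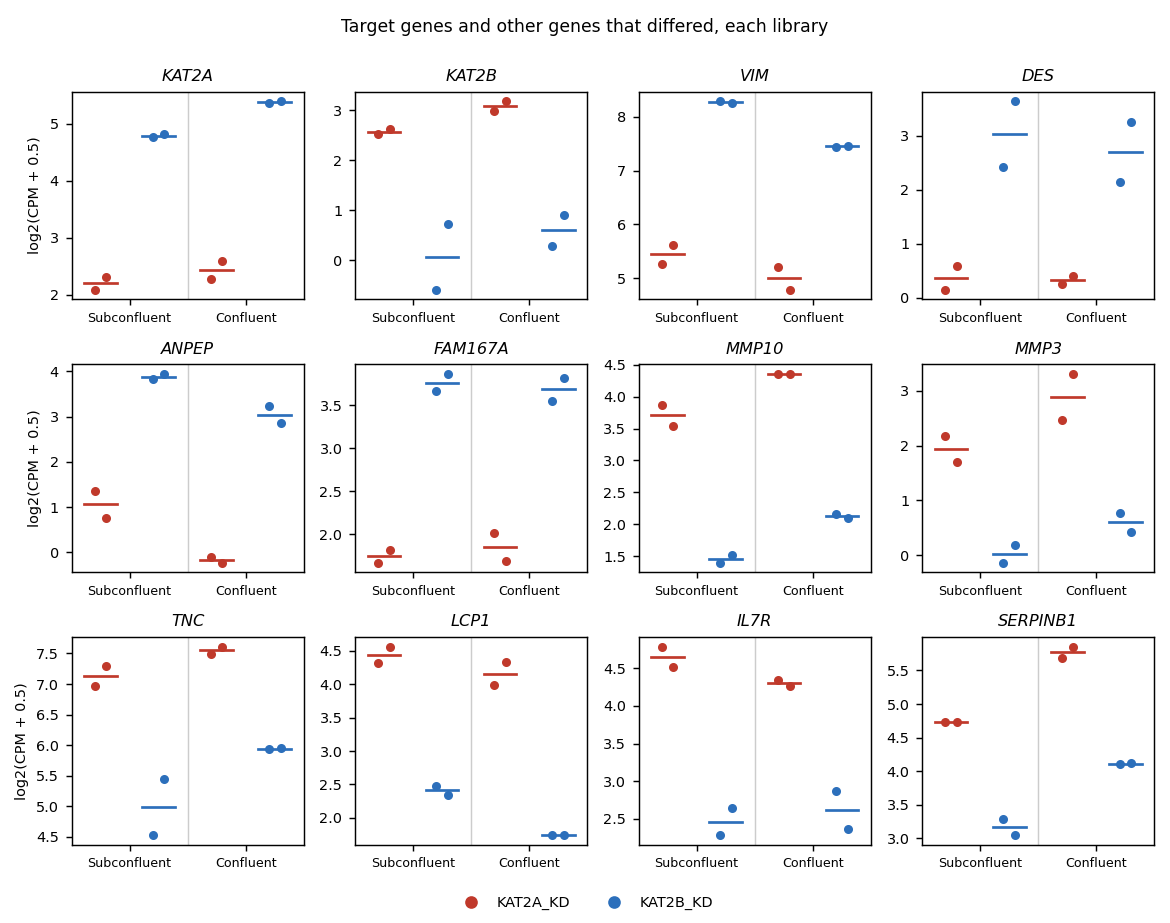
Levels of the 2 target genes and 10 other genes in each library, as log2(CPM + 0.5) on separate vertical axes, at Subconfluent (left) and Confluent (right). Points are the 2 libraries of a group, bars their mean, red KAT2A_KD and blue KAT2B_KD; VIM, DES, ANPEP and FAM167A sit lower in KAT2A_KD, and MMP10, MMP3, TNC, LCP1, IL7R and SERPINB1 higher.

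Other genes passed without each library in turn and are named here after their values were seen. The actin-bundling gene LCP1 was at 19.5 and 23.1 CPM against 5.08 and 4.58 and at 15.3 and 19.7 against 2.83 and 2.85 (log2 2.36, SE 0.18, adjusted p = 9.21e-06). The interleukin-7 receptor gene IL7R (log2 2.02, adjusted p = 5.78e-05), the sorting receptor gene SORT1 (1.86, 7.38e-05), the protease inhibitor gene SERPINB1 (1.65, 1.11e-05), the receptor tyrosine kinase gene AXL (1.08, 0.000208), the adhesion gene EPCAM (1.22, 0.00322) and the envelope gene SCEL (1.37, 0.000932) were also higher.

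The other genes among the 12 highest remain. CXADR, a virus receptor and junction protein, had a log2 difference of 2.86 (SE 0.43, adjusted p = 0.00374), with related pseudogenes that can share its reads. ARFGEF3 had 2.81 (adjusted p = 0.0174), lost without KAT2A_KD Subconfluent 1 (0.0912), KAT2B_KD Confluent 1 (0.0636), KAT2B_KD Confluent 2 (0.0518) or KAT2A_KD Confluent 2 (0.0638).

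Of 37 tested interferon-stimulated genes, 32 had a log2 difference above 0, the median was 0.30, and 2 passed, both higher (0 or 1 with 1 library left out). They were the antiviral GTPase MX1 (log2 0.77, adjusted p = 0.0329), lost without each library but KAT2B_KD Confluent 2 (0.0516 to 0.135), and OAS2, an oligoadenylate synthetase (0.70, 0.0263), lost without each library but KAT2B_KD Subconfluent 2 (0.0577 to 0.139). Over all 14451 tested genes 6988 were above 0 and 7463 below. Members of a list can change together and are not independent of each other. The ATF4 amino acid stress list had 0 higher and 2 lower of 31, with 27 of 31 below 0 and a median of -0.33. The asparagine synthetase ASNS (log2 -0.63, adjusted p = 0.0249) and the pseudokinase TRIB3 (-0.65, 0.0228) passed, and ATF4 itself did not (-0.51, 0.0679, with the replicate block 0.0125). With the block 6 members were lower, and with 1 library left out 0 to 2.

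TRIB3 was lost without each library but KAT2B_KD Subconfluent 1 and KAT2B_KD Confluent 2 (adjusted p 0.0548 to 0.149). ASNS was lost without KAT2B_KD Subconfluent 1 (0.0649), KAT2A_KD Subconfluent 1 (0.162), KAT2B_KD Confluent 1 (0.0696), KAT2A_KD Confluent 1 (0.0615) or KAT2A_KD Subconfluent 2 (0.124).

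The following lists had 0 calls, and with 1.25% of all tested genes called, 0 in a list of this size is near the background. Of 32 tested SAGA and ATAC subunits 0 passed (median -0.05), of 15 other lysine acetyltransferases 0 (0.07) and of 17 lysine deacetylases 0 (0.01, with 1 lower under the replicate block). The basal keratinocyte and adhesion list had 0 calls of 23 (median -0.08) and mitosis 0 of 29 (0.15, with 28 of 29 above 0, beside 6988 of 14451 over all genes). DNA replication had 0 of 29 (0.14, with 1 higher under the block) and the Notch pathway 0 of 26 (-0.06, with 1 lower under the block).

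No call was made among 20 aminoacyl-tRNA synthetases (median -0.09), 19 genes of MHC class I presentation (-0.01) or 27 p53 targets and CDK inhibitors (-0.06). The same held for the EGF receptor family (12 tested, median 0.11, 1 higher under the block), MYC network (29, 0.05, 1 higher and 1 lower), cholesterol synthesis (30, -0.09, 2 lower), hypoxia and glycolysis (27, -0.10, 2 higher) and NRF2 stress (19, 0.02, 1 lower). These counts come from edgeR's quasi-likelihood test across all genes.

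**Figure D3:**
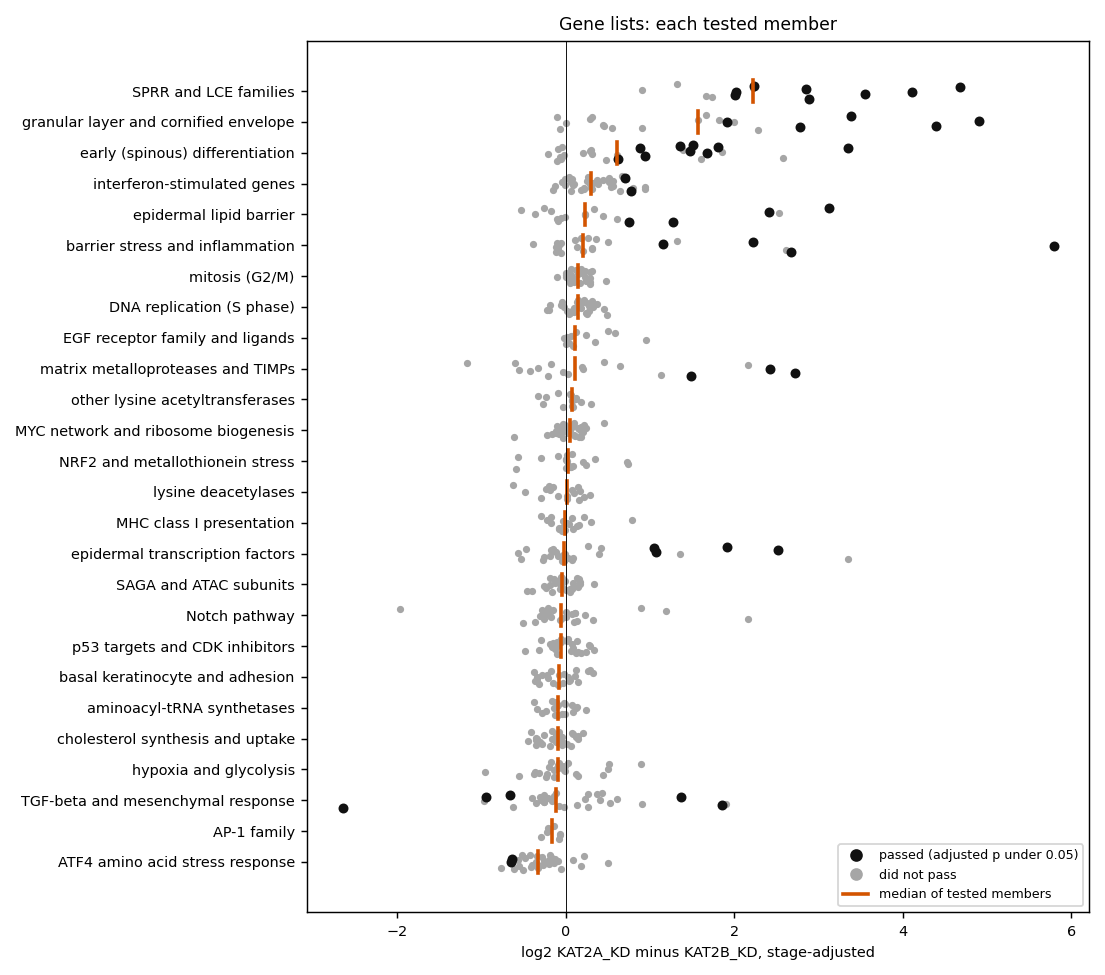
Fitted log2 difference (KAT2A_KD minus KAT2B_KD, adjusted for stage) of each tested member of 26 gene lists, 1 list per row, ordered by median. Black points passed at an adjusted p under 0.05, grey points did not, and orange bars are medians; values of genes with very few counts depend on the fit's prior. The SPRR and LCE list has the highest median (2.22) and the ATF4 list the lowest (-0.33).

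Within single stages fewer genes passed. At Subconfluent 58 genes passed (0.401%), 48 higher and 10 lower in KAT2A_KD, and at Confluent 19 (0.131%), 15 higher and 4 lower. Of the 58, 57 had the same sign at Confluent and 16 passed there too, and all 19 Confluent genes had the same sign at Subconfluent. The 16 genes are in both sets, and both stages come from the same fit. The share of all tested genes with the same sign at both stages is not given here, so these counts have no background beside them. With the replicate block the counts were 131 and 109. The Subconfluent count was 22 without KAT2A_KD Subconfluent 1, 16 without KAT2A_KD Subconfluent 2, 36 without KAT2B_KD Subconfluent 1, 32 without KAT2A_KD Confluent 1 and 35 without KAT2A_KD Confluent 2. The Confluent count was 5 without KAT2A_KD Confluent 1, 6 without KAT2B_KD Confluent 1, 7 without KAT2A_KD Confluent 2, 8 without KAT2A_KD Subconfluent 1 or 2, and 33 without KAT2B_KD Subconfluent 1 or 2. Single genes called at 1 stage were not followed library by library.

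Whether the difference itself changed from Subconfluent to Confluent was tested for the same 14451 genes, and 0 passed in edgeR, with 382 at an unadjusted p under 0.05. DESeq2 and edgeR with the replicate block each called the same 2, NOTCH3 and HRNR, named here for that reason. NOTCH3, a Notch receptor, was at 7.83 and 9.60 CPM against 0.164 and 0.645 at Subconfluent (log2 4.34, adjusted p = 0.00164) and at 24.9 and 24.3 against 7.85 and 14.1 at Confluent (1.17, 0.308, and 0.0251 with the replicate block). Over both stages NOTCH3 did not pass (2.16, 0.242). HRNR, which encodes the envelope protein hornerin, was at 3.01 and 2.65 CPM against 0 and 0 at Subconfluent and at 7.36 and 11.1 against 7.93 and 5.80 at Confluent.

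**Figure D4:**
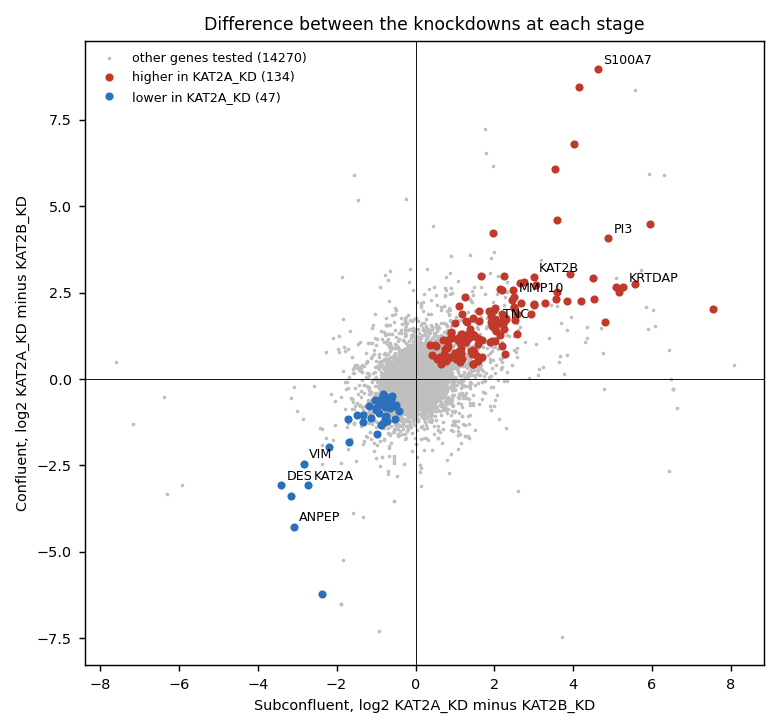
Fitted log2 difference (KAT2A_KD minus KAT2B_KD) of each of 14451 tested genes at Subconfluent (horizontal) and at Confluent (vertical). Red points are the 134 genes higher and blue points the 47 lower in KAT2A_KD in the stage-adjusted test. Grey points are the other genes. The called genes were chosen on these same libraries of both stages together. That choice favours the quadrants where both stages have the same sign, so their position there is no test.

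The same genotype difference was then set against the Differentiated stage (day 4), in a fit of 12 libraries that scales levels anew. Of the 134 genes higher in KAT2A_KD before differentiation 121 were above 0 at Differentiated, and of the 47 lower genes 28 were below 0. Over all genes tested before differentiation, the median difference at Differentiated was -0.01. The change in the difference was tested for 15170 genes and 51 passed (0.336%). Of the 181 genes 20 were among them, 19 of these with a smaller or turned difference at Differentiated. The 181 were chosen for a difference before differentiation, which the change subtracts, so the choice itself favours a smaller difference at Differentiated. The count of 51 fell to 5 without KAT2A_KD Differentiated 1, and to 26 to 30 without KAT2A_KD Subconfluent 1 (27), KAT2B_KD Confluent 1 (28), KAT2B_KD Subconfluent 2 (27), KAT2A_KD Subconfluent 2 (26) or KAT2A_KD Differentiated 2 (30). With the replicate block 159 passed.

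S100A8 at Differentiated stood at 4724 and 4873 CPM in KAT2A_KD and 5837 and 2830 in KAT2B_KD, and the genotypes overlapped there. Its log2 difference was 2.76 before and 0.15 at Differentiated. VIM was at 8.30 and 5.93 CPM in Differentiated KAT2A_KD and at 12.8 and 9.10 in KAT2B_KD, with a log2 difference of -2.64 before and -0.61 at Differentiated. LCP1 had 2.38 before and 0.05 after. OAS2 was the 1 gene of the 20 whose difference neither shrank nor changed sign, at 64.8 and 68.5 CPM against 13.1 and 9.17, from 0.71 to 2.59. Without KAT2A_KD Differentiated 1 the changes of VIM (adjusted p = 0.120) and OAS2 (0.0605) did not pass, that of S100A8 was lost without 6 of the 12 libraries (0.0570 to 0.207) and that of LCP1 without 8 (0.0514 to 0.124). For MMP10 (2.43 and 2.70), MMP3 (2.71 and 2.68) and TNC (1.86 and 1.97) the change did not pass. ANPEP had fitted values of -3.68 before and 3.27 at Differentiated, but this change did not pass (adjusted p = 0.247). A turned direction of ANPEP is therefore not shown, and its levels at Differentiated are not given here.

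**Figure D5:**
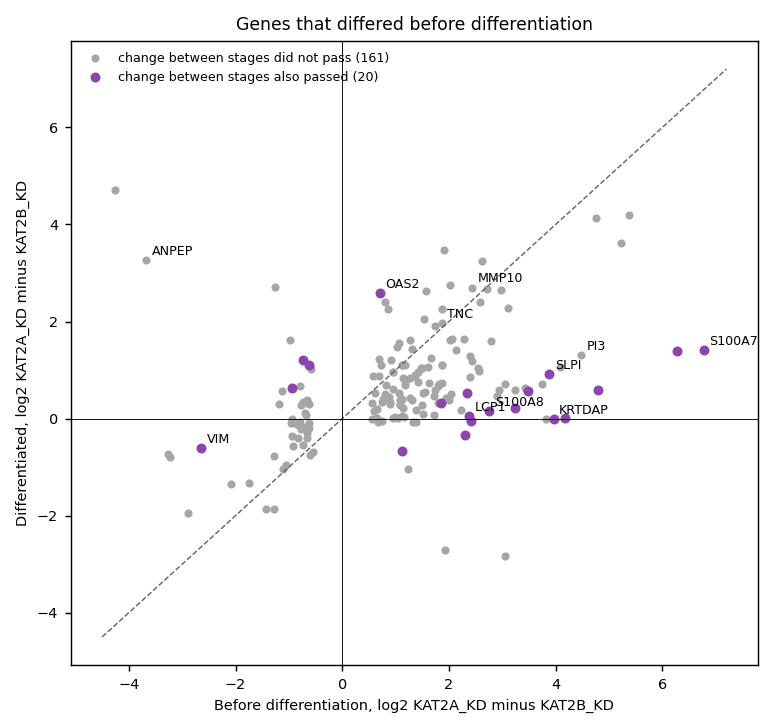
Fitted log2 difference (KAT2A_KD minus KAT2B_KD) before differentiation (horizontal) and at Differentiated (vertical) for the 181 genes that passed before differentiation, from the 12-library fit. Purple points are the 20 genes whose change between stages also passed, grey points the other 161, and the dashed line marks equal differences; 121 of the 134 higher genes lie above 0 on the vertical axis.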

How the data were processed

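Gene counts of 8 libraries were compared, 2 per group, with 4 more in the Differentiated comparison. The deposited table holds raw read counts per gene, and a second deposited table of signal values equals these counts divided by 1 size factor per library (largest relative deviation 5e-07). Per the submitters' processing notes, FastQC, Bowtie2, featureCounts, DESeq2 and hg19 were used; versions, annotation, strand setting and treatment of multi-mapping reads are not given in the sources used here. The table had 26364 genes, 21173 with a count, and 1 column of no sample, which was not used. Spreadsheet software had changed 28 gene symbols to dates, and 26 were recovered from the signal table.

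Counts were fitted in R 4.3.3 with edgeR 4.0.16 (filterByExpr by group, TMM, robust glmQLFit, glmQLFTest), with Benjamini-Hochberg adjustment over all genes tested and a threshold of 0.05. The stage-adjusted fit left 5 residual degrees of freedom, to which the prior added a median of 9.49, and its common biological coefficient of variation was 0.186. Single stages and their difference came from a fit of 4 groups, and the change to Differentiated from a fit of 6 groups. Ratios of genes with 1 to 3 counts in a genotype carry 95% counting intervals.

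The rule for named genes took the 12 highest and 12 lowest log2 differences among called genes whose mean log2 CPM was 1 or more, with no overlap within a stage, up to 4 members of each of 31 gene and marker lists, and KAT2A and KAT2B. The members, lists and rule were chosen with earlier results of these data known. On simulated counts of 14451 genes with 200 changed, the stage-adjusted test recovered 69.4% of 98 genes changed by 1 log2. It recovered 88.2% of 102 changed by 2, and 4.82% of its calls were false. The simulated counts were drawn gene by gene from fitted means and dispersions. They held no effect of the replicate number and no correlation between genes, so these shares need not hold for the real libraries.

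The deposited sample table numbers the libraries of each group 2 and 3, here called 1 and 2. The difference between the numbers correlated between all 6 pairs of the 4 groups (0.13 to 0.38, each over 0.1). These correlations cover the 4 groups before differentiation only. The numbers may therefore pair the libraries, and results of a fit with the number as a block are given beside the calls and counts it changed. The main fits hold no block. The SE, adjusted p and left-out results of named genes come from them unless the block or DESeq2 is named. The alternatives were RLE scaling, no filter, DESeq2 1.42.0, a fit of all 24 libraries, the block, each library left out, the libraries of 1 number alone (values with no test), and a minimum absolute log2 difference of 1.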

Additional observations from a re-analysis of the deposited data

Results flagged for a closer look

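For 13 named genes the difference between KAT2A_KD and KAT2B_KD changed between the stages before differentiation and Differentiated in edgeR's test of that change (adjusted p under 0.05, 2 libraries per group). The values below are the log2 difference at Differentiated minus that before, so a negative value is a difference that moved toward or below KAT2B_KD.

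S100A7 had -5.37, S100A7A -4.89, PLA2G4E -4.17, KRTDAP -3.98, NOTCH3 -3.19, SULT2B1 -3.03, SLPI -2.97, S100A8 -2.61, LCP1 -2.33 and CLDN1 -1.53. VIM had 2.03, OAS2 1.88 and SERPINE2 1.58. The fitted values of S100A7, S100A7A and PLA2G4E rest on very few counts in KAT2B_KD before differentiation and depend on the fit's prior count.

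Each of the 13 calls was lost without at least 1 library. Without KAT2A_KD Differentiated 1, VIM had an adjusted p of 0.120, OAS2 0.0605, NOTCH3 0.0561 and SLPI 0.0561, and these 4 passed without each of the other 11 libraries. S100A7 was lost without 3 libraries (adjusted p 0.0553 to 0.0928), KRTDAP without 4 (0.0526 to 0.124), CLDN1 without 5 (0.0514 to 0.109), SULT2B1 without 5 (0.0522 to 0.0970), S100A8 without 6 (0.0570 to 0.207), PLA2G4E without 7 (0.0512 to 0.157), LCP1 without 8 (0.0514 to 0.124), S100A7A without 9 (0.0578 to 0.170) and SERPINE2 without 11 of the 12 (0.0525 to 0.188).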

How the results depend on the processing

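The stage-adjusted count of 181 was 186 with RLE scaling, 206 with all 24 libraries in the fit (85.4% higher in KAT2A_KD, against 74.0%), 317 with DESeq2, 424 with no filter on low counts and 375 with the replicate block (62.4% higher), which kept all 181 calls, and 74 to 166 with 1 library left out. The Subconfluent count of 58 was 174 with no filter, 91 with DESeq2, 91 with all 24 libraries, 131 with the block and 16 to 63 with 1 library left out, and the Confluent count of 19 was 189, 52, 45, 109 and 5 to 33 in the same order. The count of 0 for the change between these stages was 17 with no filter, 2 with DESeq2, 2 with the block and 0 to 0 with 1 library left out. The count of 51 for the change to Differentiated was 269 with no filter, 172 with DESeq2, 79 with all 24 libraries, 159 with the block and 5 to 74 with 1 library left out. For 53 genes followed one by one, 658 of 795 values kept their direction and call, 120 lost the call, 17 moved, all in the libraries of 1 number alone, and 0 reversed. Pairing by the replicate number ended no stage-adjusted call. The cause of these shifts was not tested.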
